A study of Mus musculus with 6 samples.

Results

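The interferon-stimulated genes examined here were 45 named genes of the type I interferon response, taken by gene name from the deposited table of 55487 genes. All 45 were found there. They were ordered by role into 2 receptor genes, 4 transcription factors, 5 nucleic acid sensors, 5 oligoadenylate synthetases, 12 other antiviral effectors, 8 interferon-inducible GTPases, and 9 modifiers and regulators. RNA had been sequenced from LSKs, the Lin- Sca-1+ c-Kit+ bone marrow cells among which hematopoietic stem and multipotent progenitor cells are found, to compare their transcriptomes with and without Tespa1 after irradiation. There were 3 libraries from Tespa1+/+ mice and 3 from Tespa1-/- mice.

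Every mouse had received 5.0 Gy of total body irradiation, and the cells were collected at day 13. The methods of the study give male mice aged 8 to 10 weeks, a purchased germline null allele named B6.129S-Tespa1tm1Smoc that was crossed back to C57BL/6. The labels call the wild-type mice littermates, whereas the methods do not mention littermates and list normal C57BL/6 mice from a separate source. The allele was thus carried by every cell of the mutant mice, and no unirradiated group was included. Nothing in the labels or methods ties a replicate to a single mouse, so p-values measure the spread between these libraries only. Tespa1 itself had 34.5, 32.7 and 36.0 CPM in the Tespa1+/+ libraries and 15.3, 14.3 and 14.2 CPM in the Tespa1-/- libraries, so its RNA was reduced but not absent. CPM denotes read counts put on one library size by TMM factors. Deposited totals ran from 12856630 to 30576981 counts per library, and by chi-square tests no pair of libraries was alike enough to be one library deposited more than once (at least 7.33 per degree of freedom within a group).

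Type I interferons bind a receptor made of the Ifnar1 and Ifnar2 chains. The receptor's kinases phosphorylate STAT proteins such as STAT2, which joins IRF9 in a complex that binds a DNA element called the interferon-stimulated response element, and the genes switched on there encode sensors of foreign RNA and DNA, enzymes that degrade or block viral RNA, membrane proteins, GTPases and the system's own brakes. Hematopoietic stem cells are known to express many of these genes without infection, and interferon can drive such cells from quiescence into division.

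As a feature that the choice of the genes did not use, their promoters were searched for the core of the response element. The window was 250 bases before to 50 bases after each transcription start in the RefSeq promoter table of build GRCm38.p6, which had entries for 34 of the 45 genes. Dhx58, Oas2, Parp9, Mx1, Rtp4, Zbp1, Mx2, Usp18, Ifi27l2a, Parp14 and Iigp1 were not matched. The core, GAAA repeated after any 2 bases, or TTTC repeated likewise when read on the other strand, occurred in 19 of the 34 promoters (55.9%). Over all 27025 genes of the table the share was 3.99%, and over all 32851 promoters, which count alternative starts apart, it was 3.44%. The gamma-activated site, TTC and GAA with any 3 bases between them, which reads the same on both strands, was searched separately and counted also where it overlapped the first motif. It occurred in 12 of the 34 (35.3%) against 9.55% of all genes. The element stood in 6 of the 10 matched promoters of genes that fell by more than 1.5-fold in Tespa1-/- LSKs, in 1 of 2 that rose by as much and in 12 of the 22 others.

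The stretches below show the element in 4 genes that fell and in 5 that did not pass or changed less, so that the levels given later can be set beside them. Each is written 5′ to 3′ on the strand of its gene and lies before the start, and capitals mark the matched letters, merged where matches overlap. The positions on GRCm38.p6 are chr12:26456543-26456592 (minus strand) for Rsad2, chr5:120777705-120777754 (minus) for Oas3, chr10:128270256-128270305 (plus) for Stat2 and chr19:34583353-34583436 (plus) for Ifit3. The other 5 are at chr19:34640765-34640833 (plus) for Ifit1, chr4:156200855-156200916 (minus) for Isg15, chr8:71537567-71537622 (minus) for Bst2, chr5:120907526-120907565 (minus) for Oas1a and chr3:142559979-142560034 (plus) for Gbp3.
Rsad2: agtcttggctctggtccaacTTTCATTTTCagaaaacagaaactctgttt
Oas3: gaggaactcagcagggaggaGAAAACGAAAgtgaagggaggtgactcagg
Stat2: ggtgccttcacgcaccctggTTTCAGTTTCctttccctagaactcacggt
Ifit3: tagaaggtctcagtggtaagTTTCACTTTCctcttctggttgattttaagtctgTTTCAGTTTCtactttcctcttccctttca
Ifit1: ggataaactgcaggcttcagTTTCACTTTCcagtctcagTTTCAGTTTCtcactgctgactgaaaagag
Isg15: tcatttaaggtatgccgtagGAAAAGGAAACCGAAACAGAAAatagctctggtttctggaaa
Bst2: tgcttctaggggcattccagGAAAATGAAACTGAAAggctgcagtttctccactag
Oas1a: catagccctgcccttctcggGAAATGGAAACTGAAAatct
Gbp3: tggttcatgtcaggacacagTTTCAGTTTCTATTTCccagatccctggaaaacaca
The runs of Isg15, Bst2, Oas1a and Gbp3 hold several overlapping matches, and Ifit3 and Ifit1 hold 2 separate matches each. Rsad2, Oas3 and Stat2 hold 1 each. So do Gbp2, Gbp7, Igtp, Trim30a and Ifitm2, which are not shown and did not fall by more than 1.5-fold. These are matches of letters and no record of binding.

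Most of the genes were lower in Tespa1-/- LSKs, by small amounts, and a few were higher. With edgeR's quasi-likelihood test and Benjamini-Hochberg adjustment over the 15332 genes tested, 34 of the 45 fell and 4 rose at an adjusted p under 0.05, and 7 did not pass; of all genes tested, 31.8% fell and 31.5% rose. With a fold over 1.5 as well, which is what "called" means from here on, 18 were called lower (40%, against 19.2% of all genes tested) and 2 were called higher (4.44%, against 14.0%). The median log2 fold change of the 45, Tespa1-/- over Tespa1+/+, was -0.49, and that of all genes tested was 0.00. In 40 of the 45 the Tespa1+/+ and Tespa1-/- libraries did not overlap, which was so for 69.1% of all genes tested. Fold changes ran from -2.02 for Iigp1 to 1.95 for Ifitm1 on the log2 scale. In bulk RNA, fewer cells that express a gene and less RNA of it per cell cannot be told apart.

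**Figure D1:**
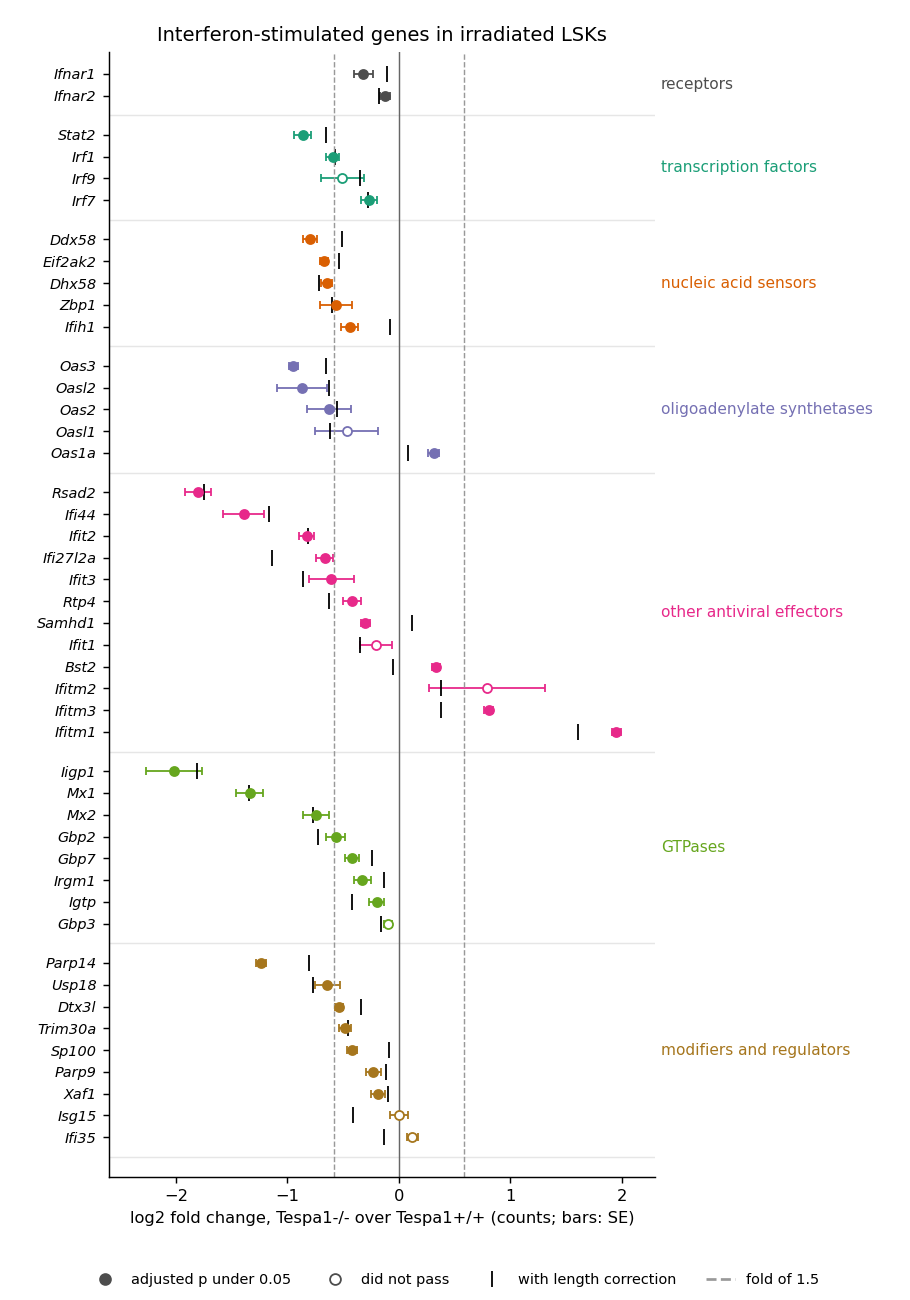
Log2 fold change (Tespa1-/- over Tespa1+/+, horizontal axis) of the 45 genes by role, with bars for the SE, filled circles at an adjusted p under 0.05, black ticks for the value after the length correction and dashed lines at a fold of 1.5. Circles lie mainly left of 0, from Iigp1 at -2.02, and Ifitm1 stands alone at 1.95 on the right.

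The plot by role shows that each role had its median below 0 and that the spread was widest among the antiviral effectors. The role medians ran from -0.22 for the receptors to -0.65 for the sensors. Summed over its genes, the level of the sensors was 284 to 295 CPM in Tespa1+/+ and 184 to 190 CPM in Tespa1-/- libraries. That of the GTPases was 328 to 342 against 250 to 261 CPM, and that of the modifiers and regulators 605 to 625 against 440 to 445 CPM. Only the other antiviral effectors had a higher sum in Tespa1-/- libraries, 1396 to 1608 against 775 to 933 CPM. The Ifitm genes described further on made up most of it.

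Both receptor genes fell, by little. Ifnar1, the chain that binds TYK2, had 74.5, 66.4 and 65.8 CPM in Tespa1+/+ and 53.5, 50.6 and 61.6 CPM in Tespa1-/- libraries. Ifnar2, the chain with the higher affinity for interferon, had 92.5 to 96.8 CPM against 83.5 to 91.0 CPM. The Tespa1-/- libraries all lay below the Tespa1+/+ libraries for both chains. Their log2 fold changes were -0.32 (SE 0.08, adjusted p = 0.0132) and -0.12 (SE 0.04, adjusted p = 0.0433), so neither reached a fold of 1.5. The pass of Ifnar2 was lost without any of 5 of the 6 libraries taken singly, with adjusted p between 0.0658 and 0.166. Ifnar1 was at -0.11 with the length correction described below (adjusted p = 0.304).

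Among the transcription factors, Stat2 and Irf1 were called lower and Irf7 fell by less. Stat2, which carries the transactivation domain of the complex formed with IRF9 (ENSMUSG00000040033, chromosome 10, 128270559 to 128292849), had 44.0, 47.8 and 42.8 CPM in Tespa1+/+ and 25.8, 25.6 and 22.5 CPM in Tespa1-/- libraries. The groups were well apart, with the highest Tespa1-/- library far under the lowest Tespa1+/+ library. The log2 fold change was -0.86 (SE 0.08, adjusted p = 5.83e-05), a level 1.82-fold lower. Stat2 is the one gene of the 45 on the chromosome of Tespa1 and lies 2030020 bases from it. Irf1, an early interferon-induced factor (ENSMUSG00000018899, chromosome 11, 53770014 to 53778374), had 52.5, 47.4 and 53.0 CPM against 34.6, 33.5 and 32.9 CPM. Its libraries did not overlap either, and its log2 fold change of -0.60 (SE 0.06, adjusted p = 0.000125) lay just past the fold of 1.5. Irf7, the factor that amplifies interferon production, had 31.2 to 35.6 CPM against 26.0 to 29.0 CPM and a log2 fold change of -0.27 (SE 0.07, adjusted p = 0.0139). Irf9, the DNA-binding partner of STAT2, had 58.5, 84.1 and 57.2 CPM in Tespa1+/+ and 40.9, 58.4 and 41.9 CPM in Tespa1-/- libraries. The second library of each group was the high one, the groups overlapped, and at -0.51 (SE 0.19, adjusted p = 0.0525) Irf9 did not pass. It passed under 8 alternatives at log2 fold changes from -0.50 to -0.68, among them DESeq2 (adjusted p = 0.00561), total counts (adjusted p = 0.0276), no low-count filter (adjusted p = 0.0456) and the fit without the second Tespa1-/- library (adjusted p = 0.0178). The exons of Irf9 share 123 bases with those of Rnf31 on the same strand.

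All 5 nucleic acid sensors fell, 3 of them by more than 1.5-fold (60%, against 19.2% of all genes tested). Ddx58, which encodes RIG-I, the sensor of RNA with a free 5′ triphosphate (ENSMUSG00000040296, chromosome 4, 40203773 to 40239828), had 46.1, 46.2 and 48.8 CPM in Tespa1+/+ and 29.0, 26.0 and 26.0 CPM in Tespa1-/- libraries. Dhx58, which encodes the related LGP2, had 63.9, 63.2 and 62.1 CPM against 38.5, 41.3 and 40.8 CPM. Eif2ak2, which encodes the double-stranded RNA-activated kinase PKR (ENSMUSG00000024079, chromosome 17, 78852564 to 78882573), had 124, 121 and 120 CPM against 78.7, 74.4 and 76.4 CPM. In each of these genes the libraries of a group differed far less than the groups did. The log2 fold changes were -0.80 for Ddx58 (SE 0.06, adjusted p = 3.72e-05), -0.65 for Dhx58 (SE 0.05, adjusted p = 2.31e-05) and -0.67 for Eif2ak2 (SE 0.04, adjusted p = 8.09e-06). Ifih1, which encodes MDA5, the sensor of long double-stranded RNA, had 44.2 to 53.0 CPM against 35.1 to 36.0 CPM and a log2 fold change of -0.44 (adjusted p = 0.00139). Zbp1, a sensor of Z-form nucleic acids, had 9.37 to 11.3 CPM against 5.48 to 7.75 CPM and a log2 fold change of -0.56 (adjusted p = 0.0120), just short of a fold of 1.5. Ifih1 no longer passed with the length correction (-0.08, adjusted p = 0.381).

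The oligoadenylate synthetases, whose product activates RNase L, did not move together. Oas3, the largest of them (ENSMUSG00000032661, chromosome 5, 120753098 to 120777661), had 76.4, 76.7 and 74.7 CPM in Tespa1+/+ and 39.2, 40.02 and 38.9 CPM in Tespa1-/- libraries. The libraries of each group were nearly level, and Oas3 fell by 0.95 on the log2 scale (SE 0.04, adjusted p = 2.58e-06). Oas1a, in the same cluster on chromosome 5 (ENSMUSG00000052776, 120896256 to 120907521), had 68.9, 70.4 and 68.9 CPM against 87.2, 90.9 and 80.6 CPM. All Tespa1-/- libraries were above all Tespa1+/+ libraries, and it rose by 0.31 (SE 0.05, adjusted p = 0.00132), which is under 1.5-fold. Corrected for length, it was at 0.08 (adjusted p = 0.222). Oas2, beside Oas3 (120730333 to 120749853), had 60.3, 66.4 and 49.8 CPM against 44.2, 26.8 and 43.6 CPM. Its groups did not overlap but came close, and its fall of 0.63 (SE 0.20, adjusted p = 0.0264) was lost without the first or the second Tespa1+/+ library (adjusted p = 0.0650 and 0.0883). 

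Oasl1 and Oasl2, which encode proteins like the synthetases with added ubiquitin-like domains, lie next to each other on the same chromosome. Oasl2 had 72.0, 69.8 and 73.3 CPM in Tespa1+/+ and 24.3, 46.6 and 47.3 CPM in Tespa1-/- libraries. The first Tespa1-/- library was about as far under the other Tespa1-/- libraries as these were under the Tespa1+/+ libraries. The log2 fold change was -0.87 (SE 0.23, adjusted p = 0.0123). Oasl1 had 39.9, 23.5 and 42.2 CPM against 29.7, 29.2 and 16.5 CPM. The groups overlapped, 1 library of each stood low, and at -0.47 (SE 0.28, adjusted p = 0.187) Oasl1 did not pass, although it did without the second Tespa1+/+ library (-0.69, adjusted p = 0.0477). How reads shared by near-identical genes such as those of the Oas, Oasl, Ifit, Gbp and Ifitm families were split by the counting is not given in the sources used here, so single values in these families are less certain.

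The 12 other antiviral effectors held the strongest rise and some of the strongest falls. Rsad2, which encodes viperin, an enzyme that makes a chain-terminating ribonucleotide (ENSMUSG00000020641, chromosome 12, 26442746 to 26456452), had 18.1, 17.0 and 16.0 CPM in Tespa1+/+ and 4.64, 4.41 and 5.65 CPM in Tespa1-/- libraries. Ifi44, a cytoplasmic antiviral protein (ENSMUSG00000028037, chromosome 3, 151730922 to 151749960), had 20.8, 20.4 and 19.8 CPM against 8.87, 8.95 and 5.16 CPM. In both genes every Tespa1-/- library was below 0.5 times the lowest Tespa1+/+ library. Rsad2 was 3.49-fold lower (log2 fold change -1.80, SE 0.11, adjusted p = 1.30e-05) and Ifi44 2.63-fold lower (-1.39, SE 0.19, adjusted p = 0.000488). Ifi27l2a, a small interferon-induced protein gene of 463 exon bases (ENSMUSG00000079017, chromosome 12, 103442167 to 103443680), had 19.2, 17.9 and 19.9 CPM against 11.6, 12.6 and 11.6 CPM and fell by 0.67 on the log2 scale (SE 0.08, adjusted p = 0.000254). It was the shortest of the 45, and its fall was larger with the length correction, at -1.14.

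The Ifit genes, whose proteins bind foreign RNA ends, lie side by side on chromosome 19. Ifit2 (ENSMUSG00000045932, 34550694 to 34576419) had 34.5, 34.2 and 33.1 CPM in Tespa1+/+ and 20.02, 19.6 and 17.7 CPM in Tespa1-/- libraries. Its groups were far apart and it fell by 0.83 (SE 0.07, adjusted p = 4.05e-05). Ifit3 was near the limit of what these counts resolve, with 1.96 to 2.92 CPM against 1.41 to 1.77 CPM and a mean count of 38.7. Its fall of 0.61 (SE 0.20, adjusted p = 0.0323) was lost under DESeq2 (adjusted p = 0.182) and without any single library but the third Tespa1+/+ one (adjusted p between 0.0570 and 0.115). Ifit1 had 11.7, 11.7 and 9.98 CPM against 9.86, 7.92 and 11.3 CPM, with overlapping groups, and its log2 fold change of -0.21 (SE 0.14, adjusted p = 0.240) did not pass.

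Ifitm1 rose more than any other of the genes. The Ifitm genes encode membrane proteins that hinder viral entry and lie together on chromosome 7. Ifitm1 (ENSMUSG00000025491, 140967221 to 140969825) had 161, 149 and 162 CPM in Tespa1+/+ and 611, 605 and 604 CPM in Tespa1-/- libraries, and Ifitm3 (ENSMUSG00000025492, 141009586 to 141010770) had 206, 194 and 208 CPM against 364, 351 and 347 CPM. For both, the libraries of each group were close together and the groups far apart. Ifitm1 was 3.87-fold higher (log2 fold change 1.95, SE 0.04, adjusted p = 2.64e-07) and Ifitm3 1.75-fold higher (0.81, SE 0.04, adjusted p = 3.81e-06). After the length correction Ifitm1 stood at 1.60 and was still called. Ifitm3 stood at 0.38 and still passed (adjusted p = 6.59e-05) but no longer reached a fold of 1.5.

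Ifitm2 was split between gene records. It had 196, 70.2 and 71.4 CPM in Tespa1+/+ and 127, 328 and 128 CPM in Tespa1-/- libraries, and with such spread its log2 fold change of 0.79 (SE 0.52, adjusted p = 0.224) did not pass. Left without the first Tespa1+/+ library, it passed at 1.46 (adjusted p = 0.0324). Gm45717, a protein-coding gene record on the same strand, shares 268 exon bases with Ifitm2, which is 40.9% of the exon bases of Ifitm2. Gm45717 had 0, 3880 and 1823 counts in Tespa1+/+ and 3469, 0 and 2483 counts in Tespa1-/- libraries, so that it was at 0 exactly where Ifitm2 was high. Summed, which was chosen after these values were seen, both records had 196, 193 and 194 CPM in Tespa1+/+ and 331, 328 and 328 CPM in Tespa1-/- libraries. The spread within a group fell to an SD of 1.66 and 1.70 CPM (n = 3 each), and the summed log2 fold change was 0.76 (SE 0.03, adjusted p = 1.29e-06).

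**Figure D2:**
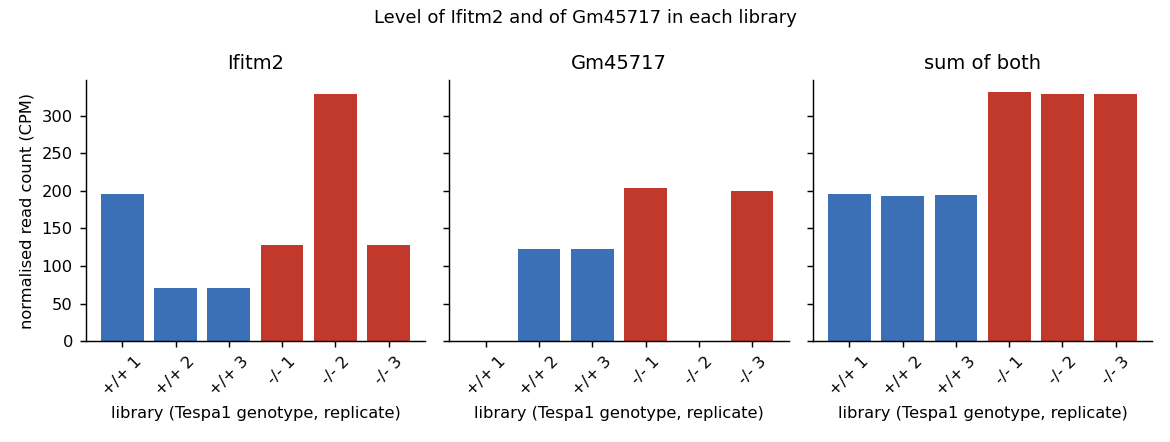
Level in CPM (vertical axis) of Ifitm2, of Gm45717 and of their sum in each of the 6 libraries (blue Tespa1+/+, red Tespa1-/-). Ifitm2 runs from 70.2 to 328 CPM with no order by genotype, whereas the sum lies between 193 and 196 CPM in Tespa1+/+ and between 328 and 331 CPM in Tespa1-/- libraries.

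The 3 remaining effectors changed by less than 1.5-fold. Bst2, which encodes tetherin, the protein that holds budding virions at the membrane, had 125 to 129 CPM in Tespa1+/+ and 157 to 162 CPM in Tespa1-/- libraries, with no overlap, and rose by 0.33 (SE 0.03, adjusted p = 9.04e-05). Corrected for length, Bst2 was at -0.05 (adjusted p = 0.259). Samhd1, a dNTP hydrolase, had 117 to 124 CPM against 96.4 to 101 CPM and fell by 0.30 (adjusted p = 0.000399). Samhd1 turned with that correction to 0.12 (adjusted p = 0.0289). Rtp4, a chaperone of membrane receptors, had 12.9 to 13.7 CPM against 9.51 to 10.2 CPM and fell by 0.42 (adjusted p = 0.00248). Rtp4 shares 296 exon bases with the record Gm45338 on the same strand.

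**Figure D3:**
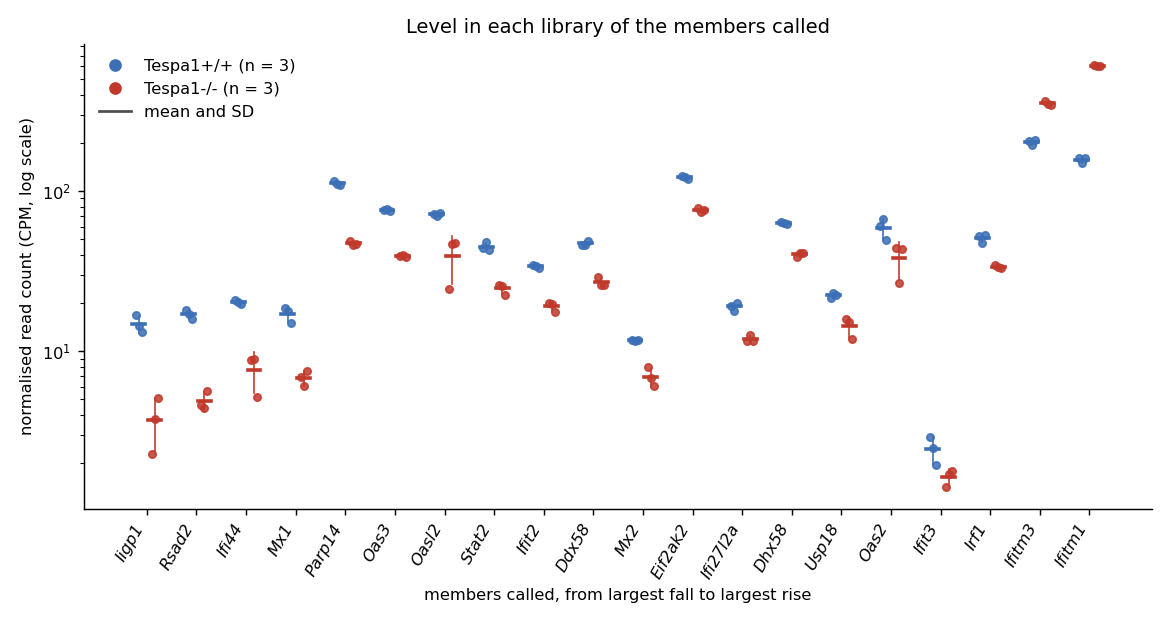
Normalised read count (CPM, log scale) in each library of the 20 genes called, Tespa1+/+ in blue and Tespa1-/- in red, with the mean as a bar and the SD as a line. No gene shows overlap between the groups, and the gap is narrow for Ifit3 (1.96 against 1.77 CPM) and Oas2 (49.8 against 44.2 CPM).

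The GTPases, which attack the membranes of pathogen compartments or block viral capsids, fell in 7 of 8 cases, while 31.8% of all genes tested did. Called lower were 3 of the 8 (37.5%, against 19.2% of all genes tested). Iigp1, an immunity-related GTPase that disrupts the vacuoles of intracellular parasites (ENSMUSG00000054072), showed the largest fall of all 45 genes. It had 16.7, 14.4 and 13.2 CPM in Tespa1+/+ and 2.29, 3.79 and 5.08 CPM in Tespa1-/- libraries. Although low and spread among the Tespa1-/- libraries, its level stayed below the Tespa1+/+ libraries in each of them, at 4.05-fold lower (log2 fold change -2.02, SE 0.25, adjusted p = 0.000328). Mx1, whose intact form encodes a dynamin-like GTPase against influenza and related viruses (ENSMUSG00000000386, chromosome 16, 97447035 to 97462907), had 18.7, 17.8 and 15.0 CPM against 6.87, 6.06 and 7.50 CPM. Its neighbour Mx2 (97535308 to 97560900) had 11.8, 11.6 and 11.7 CPM against 7.93, 6.82 and 6.05 CPM. Both are annotated as polymorphic pseudogenes, a type for genes disrupted in some genomes, so their RNA levels do not show whether protein was made. Neither gene showed overlap between groups, and the log2 fold changes were -1.34 (SE 0.12, adjusted p = 6.74e-05) for Mx1 and -0.74 (SE 0.11, adjusted p = 0.000922) for Mx2.

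The guanylate-binding proteins on chromosome 3 fell by less or did not pass. Gbp2 had 19.0 to 20.01 CPM against 11.9 to 14.4 CPM and fell by 0.57 (SE 0.09, adjusted p = 0.000914), short of a fold of 1.5. Gbp7 had 102 to 111 CPM against 72.7 to 84.0 CPM and fell by 0.42 (adjusted p = 0.000789). Gbp3 had 102 to 107 CPM against 96.0 to 98.9 CPM and at -0.10 (SE 0.04, adjusted p = 0.0510) did not pass, though its groups did not overlap. Irgm1, a regulator of the other immunity-related GTPases, and Igtp, one of these, fell by 0.33 (adjusted p = 0.00653) and by 0.20 (adjusted p = 0.0318). The pass of Igtp was lost without any single library except the third Tespa1-/- one (adjusted p between 0.0517 and 0.112). Igtp shares 162 exon bases with Irgm2 on the same strand.

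Of the modifiers and regulators, Parp14 and Usp18 were called lower. Parp14, a mono-ADP-ribosyltransferase (ENSMUSG00000034422, chromosome 16, 35832874 to 35871544), had 116, 110 and 109 CPM in Tespa1+/+ and 49.1, 45.9 and 46.9 CPM in Tespa1-/- libraries. The groups lay far apart, at 2.36-fold lower (log2 fold change -1.24, SE 0.05, adjusted p = 1.69e-06). Parp9 and Dtx3l, which form a complex of an ADP-ribose reader and a ubiquitin ligase, lie beside Parp14 and overlap each other on opposite strands by 458 exon bases. Dtx3l had 108 to 112 CPM against 75.2 to 77.6 CPM and fell by 0.54 (SE 0.04, adjusted p = 1.69e-05), whereas Parp9 had 62.5 to 69.0 CPM against 51.0 to 57.9 CPM and fell by 0.23 (SE 0.07, adjusted p = 0.0178). The pass of Parp9 was lost without the third library of either group (adjusted p = 0.0666 and 0.0510).

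Isg15, the ubiquitin-like modifier, and Usp18, the protease that removes it and also restrains IFNAR2, gave different values. Usp18 (ENSMUSG00000030107, chromosome 6, 121245906 to 121270917) had 21.5, 23.2 and 22.5 CPM in Tespa1+/+ and 15.8, 15.3 and 11.9 CPM in Tespa1-/- libraries. All Tespa1-/- libraries were lower, and Usp18 fell by 0.64 (SE 0.11, adjusted p = 0.00193). Isg15 (ENSMUSG00000035692, chromosome 4, 156199424 to 156200818) had 21.9, 20.7 and 20.8 CPM against 19.6, 23.3 and 20.6 CPM. The Tespa1+/+ range lay within the Tespa1-/- range, and the log2 fold change of 0.00 (SE 0.08, adjusted p = 0.990) did not pass. Isg15, a gene of 756 exon bases, was at -0.41 with the length correction (adjusted p = 0.00514) and then passed.

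The last of this role changed little. Trim30a, a feedback inhibitor of innate signalling, fell by 0.49 (SE 0.05, adjusted p = 0.000183), from 101 to 110 CPM down to 72.1 to 80.2 CPM. Sp100, a nuclear body protein, fell by 0.42 (SE 0.04, adjusted p = 0.000151), from 107 to 117 CPM down to 82.7 to 86.2 CPM. Sp100 no longer passed with the length correction (-0.09, adjusted p = 0.112). Xaf1, a proapoptotic protein, fell by 0.19 (adjusted p = 0.0369), a pass lost on leaving out any library except the first Tespa1-/- one (adjusted p between 0.0636 and 0.123). Ifi35 had 42.4 to 44.7 CPM against 46.1 to 49.1 CPM, and its 0.12 (SE 0.05, adjusted p = 0.0676) did not pass.

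Levels between genes were compared per length, as FPKM (fragments divided by the length of the gene and by the total of the library). In Tespa1+/+ LSKs Ifitm3 had 309 ± 12.0 FPKM (SD, n = 3), Ifitm1 124 ± 5.86 FPKM and Bst2 116 ± 1.498 FPKM. Ifitm2, split as described, had 178 ± 115 FPKM. The next were Ifi27l2a at 42.5 ± 2.26, Oas1a at 38.1 ± 0.429 and Isg15 at 31.1 ± 0.963 FPKM. Low on this scale were Iigp1 at 1.33 ± 0.163, Ifit3 at 1.46 ± 0.287, Zbp1 at 2.18 ± 0.209 and Rsad2 at 2.29 ± 0.142 FPKM, where neighbours such as Iigp1 and Ifit3, or Zbp1 and Rsad2, lay within their SDs. All 4 genes that rose were among the more abundant ones. Across the 45 genes the log2 fold change and the Tespa1+/+ FPKM had a Spearman rho of 0.53, given as a description over genes that share the same 6 libraries and whose FPKM contains the gene's length.

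**Figure D4:**
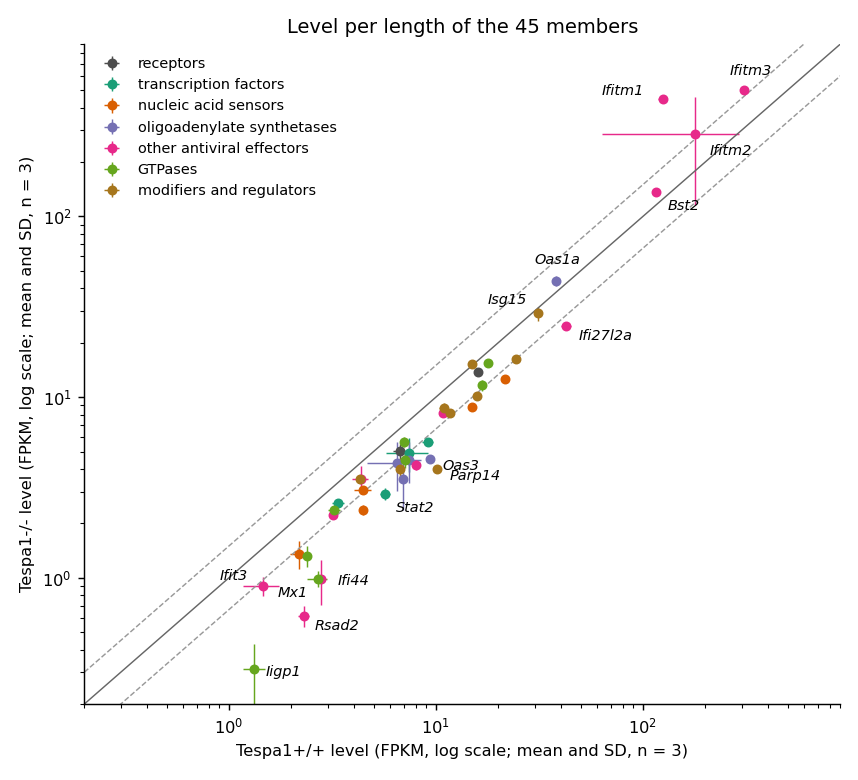
Mean FPKM in Tespa1-/- against Tespa1+/+ LSKs (both log scales, n = 3 each, bars for the SD) of the 45 genes, coloured by role, with the line of equal level and dashed lines at a fold of 1.5. Ifitm1, at 124 against 448 FPKM, lies far above the line, and Rsad2 (2.29 against 0.616) and Iigp1 (1.33 against 0.312) lie far below it.

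Gene length moved with the fold changes, in all genes and in these. The Spearman rho of the log2 fold change with exon length was -0.47 over 15320 genes tested and -0.51 over the 45, which share the same libraries. A length correction was therefore applied, in which a smooth curve of each library's deviation on exon length entered the edgeR fit as an offset. It left 16 of the 45 called lower (15.3% of the 15320 genes tested) and 1 called higher (8.18%), with a median log2 fold change of -0.46 against 0.02 over all genes. At an adjusted p under 0.05 alone, 28 fell (26.5% of all genes) and 3 rose (30.4%). Of the 18 genes first called lower, 13 were still called. Ddx58 (-0.51), Eif2ak2 (-0.54), Irf1 (-0.58) and Oas2 (-0.56) no longer reached a fold of 1.5, and Oasl2 (-0.62) no longer passed (adjusted p = 0.0512). Gbp2 (-0.73), Rtp4 (-0.62) and Zbp1 (-0.60) were called instead. Irgm1 (-0.13), Parp9 (-0.12) and Xaf1 (-0.10) were further genes that no longer passed, while Gbp3 did (-0.16, adjusted p = 0.00747).

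Short and long genes among the 45 were also set beside genes of the same lengths. Of the 23 with 463 to 3927 exon bases, 7 were called lower (30.4%), while 11.7% of the 7287 genes tested in that range were. Of the 22 with 3976 to 9306 exon bases, 11 were called lower (50%), while 23.6% of 5645 were. With the length correction these shares were 43.5% against 15.5% and 27.3% against 14.6%. The part of gene length in the values of single genes was not tested further.

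**Figure D5:**
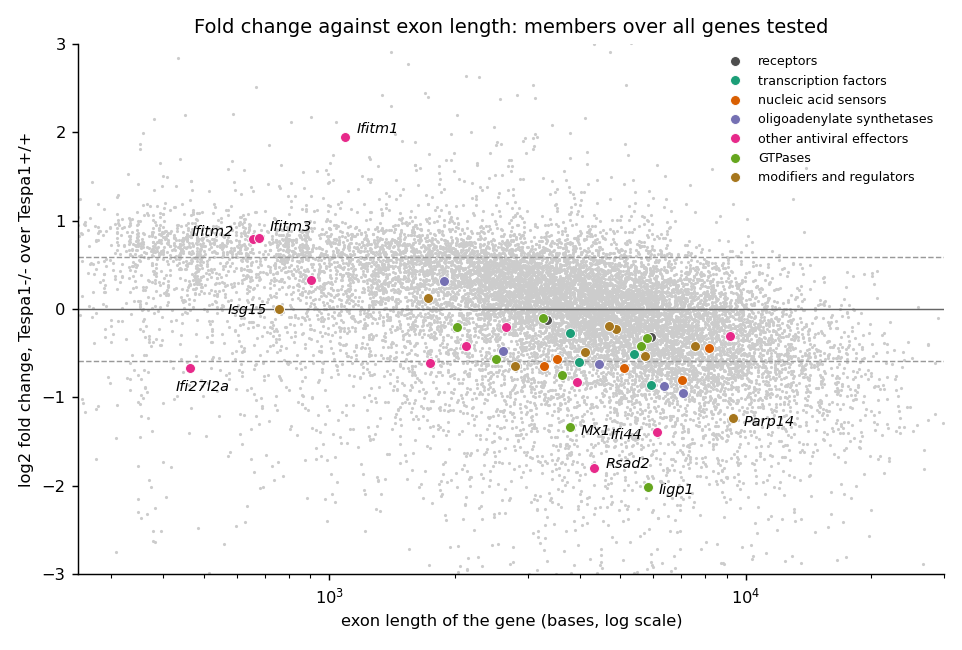
Log2 fold change (vertical axis) against exon length in bases (log scale) of the 45 genes, coloured by role, over 14866 genes tested in grey; 454 genes fall outside the axes. The grey cloud slopes down with length (rho -0.47), Ifitm1 sits above it at 1.95, and Iigp1, Rsad2, Ifi44, Mx1 and the short gene Ifi27l2a sit near its lower side.

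Other genes of the pathway came from a list of 98 found in the table, of which 75 were tested. Of these 75, 48 fell and 11 rose at an adjusted p under 0.05 (of all genes tested, 31.8% fell and 31.5% rose). Called lower were 27 (36%, against 19.2% of all genes tested) and called higher 5 (6.67%, against 14.0%). Their median log2 fold change was -0.40. With the length correction 22 were called lower and 3 higher, while 15.3% of all genes were called lower and 8.18% higher. The ligands were nearly absent. Of 21 interferon genes, 17 had no count in any library, and a count of 0 allows up to 3. Ifng, the type II interferon, had 13, 8 and 2 counts in Tespa1+/+ and 0, 0 and 4 counts in Tespa1-/- libraries. Ifnb1 had 3 counts in 1 Tespa1+/+ library, Ifna2 had 1 count in another, and Ifnz had at most 2 in any library. No ligand could be tested.

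Of 11 signalling genes, 6 fell and 1 rose at an adjusted p under 0.05 (of all genes tested, 31.8% fell and 31.5% rose). Only 2 were called lower (18.2%), near the 19.2% of all genes tested, and the median log2 fold change was -0.15. Jak2, a kinase of the interferon gamma and cytokine receptors, had 78.7, 73.6 and 69.1 CPM in Tespa1+/+ and 38.9, 44.4 and 45.6 CPM in Tespa1-/- libraries. The groups did not overlap, and the log2 fold change was -0.78 (SE 0.08, adjusted p = 0.000100). Its length-corrected value was -0.65 (adjusted p = 0.000373).

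Among 17 genes of the pathway that induces interferon, 9 fell and 4 rose at an adjusted p under 0.05. Of all genes tested, 31.8% fell and 31.5% rose. Called lower were 6 (35.3%, against 19.2% of all genes tested) and called higher 2 (11.8%, against 14.0%). With the length correction 2 were called lower and 1 higher, while 15.3% of all genes were called lower and 8.18% higher. The larger share of genes called lower was thus not kept. Myd88, the adaptor of Toll-like receptors, rose from 56.5, 48.4 and 57.2 CPM to 111, 116 and 110 CPM, and Sting1, the adaptor of cytosolic DNA sensing, from 54.9, 52.6 and 53.4 CPM to 82.8, 82.0 and 84.0 CPM. Their libraries did not overlap, and the log2 fold changes were 1.06 (SE 0.07, adjusted p = 1.53e-05) and 0.63 (SE 0.04, adjusted p = 1.08e-05). Trim25, the ubiquitin ligase that activates RIG-I, and Traf3, a signalling adaptor, fell by 0.63 (SE 0.03, adjusted p = 4.81e-06) and by 0.80 (SE 0.16, adjusted p = 0.00310). Irf8, a factor of monocyte and dendritic cell development, had 264, 268 and 169 CPM against 98.5, 96.4 and 192 CPM. The third libraries of the groups crossed, and its log2 fold change of -0.86 (SE 0.30, adjusted p = 0.0380) was lost without any of the first or second libraries of either group (adjusted p between 0.103 and 0.114). Corrected for length, Myd88 (0.91) was still called, Sting1 (0.50), Trim25 (-0.44) and Traf3 (-0.49) passed but fell short of a fold of 1.5, and Irf8 (-0.57, adjusted p = 0.142) did not pass.

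The 47 further interferon-stimulated genes tested had a median log2 fold change of -0.50. At an adjusted p under 0.05, 33 fell and 6 rose (of all genes tested, 31.8% fell and 31.5% rose). Called lower were 19 (40.4%, against 19.2% of all genes tested) and called higher 3 (6.38%, against 14.0%). With the length correction 19 were called lower and 2 higher, while 15.3% of all genes were called lower and 8.18% higher. Ifi213, of the DNA-binding Ifi200 family, had 11.0, 10.1 and 8.77 CPM in Tespa1+/+ and 1.996, 1.79 and 2.66 CPM in Tespa1-/- libraries, a log2 fold change of -2.22 (SE 0.17, adjusted p = 2.74e-05). Gbp6, another guanylate-binding protein, had 9.47, 8.49 and 5.60 CPM against 3.41, 2.55 and 1.45 CPM, and Pml, the scaffold of nuclear bodies, 71.2, 68.5 and 105 CPM against 34.8, 39.5 and 37.0 CPM. These falls, of 1.64 (adjusted p = 0.00244) and 1.13 (adjusted p = 0.000776) on the log2 scale, came without overlap between the groups. Oas1g, a neighbour and relative of Oas1a, rose by 0.64 (SE 0.05, adjusted p = 3.70e-05), from 29.8, 31.1 and 31.7 CPM to 48.0, 49.4 and 46.9 CPM. Slfn2, a regulator of lymphocyte quiescence, rose by 0.62 (SE 0.07, adjusted p = 0.000152). Ifitm6, a further gene of the Ifitm family, was the third gene called higher here and the one with the largest rise. It has a mean count of 88.7, under the minimum for naming, and is given because of its value. It had 2.37, 1.93 and 1.75 CPM in Tespa1+/+ and 9.10, 9.57 and 8.71 CPM in Tespa1-/- libraries, a log2 fold change of 2.17 (SE 0.13, adjusted p = 1.04e-05). Corrected for length, Ifi213 (-1.95), Gbp6 (-1.43), Pml (-0.95) and Ifitm6 (1.79) were still called, and Oas1g (0.46) and Slfn2 (0.35) passed but fell short of a fold of 1.5.

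The makeup of the libraries moved with genotype as well. For the counts of markers below, 19.2% of all genes tested were called lower and 14.0% higher. These shares were 15.3% and 8.18% with the length correction. Of 10 LSK marker genes, 8 were called lower (80%), and 7 with the length correction. Their summed level was 1281 to 1312 CPM in Tespa1+/+ and 732 to 751 CPM in Tespa1-/- libraries. Kit, which defines the gate, had 322 to 341 CPM against 165 to 177 CPM, and Ly6a, which encodes Sca-1, had 43.4 to 63.8 CPM against 38.1 to 44.2 CPM. Corrected for length, Kit (-0.57) and Cd34 (-0.46) passed but fell short of a fold of 1.5, while Ly6a (-0.65) was then called. Of 12 neutrophil granule and lineage genes, all rose and 11 were called higher (91.7%), as many as with the length correction. Their sums were 10624 to 11373 against 17661 to 18512 CPM. Of 8 monocyte and macrophage markers 1 was called higher and 3 lower (514 to 549 against 642 to 728 CPM). Plasmacytoid dendritic cells are strong interferon producers, and their 8 markers summed to 129 to 161 against 103 to 115 CPM, nearly all of it Tcf4. Klk1 was at 0 in all libraries, and Siglech, their defining surface marker, was at 0.222 to 0.551 against 0.551 to 1.05 CPM, too low to be tested. Of the 5 markers tested, 2, Ccr9 (-1.38) and Spib (-1.56), were called lower and 1, Cox6a2 (0.64), higher. Tcf4 fell by 0.41 (adjusted p = 0.00776), under 1.5-fold. Markers of B cells (41.7 to 46.0 against 34.1 to 36.6 CPM), T cells (16.5 to 18.2 against 8.13 to 9.57), NK cells (1.42 to 2.31 against 0.968 to 1.59), erythroid cells (28.5 to 29.6 against 47.3 to 51.9), megakaryocytes (72.4 to 80.2 against 61.1 to 63.9, Gp6 at 0) and plasma cells (137 to 161 against 224 to 232) were also counted. The erythroid and plasma cell sums hide genes that went the other way. Of 6 erythroid markers tested, 3, all globin genes, were called higher and 2, Klf1 and Epor, lower. Of 5 plasma cell markers, 1, Jchain, was called higher and 2, Sdc1 and Prdm1, lower. The part of cell makeup in the changes of the interferon-stimulated genes was not tested.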

How the data were processed

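Poly-A RNA of 6 LSK samples was made into stranded paired-end libraries and sequenced on a NovaSeq instrument. The authors deposited 1 table with raw counts, which are whole numbers and not normalised, and FPKM values, which are counts divided by gene length and library total. The submitters' processing notes name CASAVA 1.8, HISAT2, StringTie, edgeR and build GRCm38, and other versions are not given in the sources used here. Whether counting used strand is not stated. Coordinates match GENCODE M21 for 54907 of 55487 genes.

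Groups and replicate numbers came from the sample titles. In edgeR 4.0.16 (R 4.3.3), genes of low count were dropped by filterByExpr, TMM factors were applied and a two-sided quasi-likelihood F-test without covariates was run on all 6 libraries, with Benjamini-Hochberg adjustment over 15332 genes. The SE was the absolute log2 fold change over the square root of F. The cutoff for calls, a fold over 1.5 with p under 0.05, followed the study, with the adjusted p in place of the raw p. The length correction used loess (span 0.5) on GENCODE M21 exon length. Intervals and floors (3 counts) cover counting error only. The fit was also run on simulated counts with 200 changed genes, whereas 33.3% of the genes tested were called in these data. Such a run cannot show the error rate where so many genes change.

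The 45 genes, the pathway and marker lists, the tests and the alternatives were chosen with earlier results of these data known. All 45 genes were named, with each library's value for called genes with a mean count of at least 100. Of the pathway list, ligands with a count and the 3 largest called changes per list and direction among genes with a mean count of at least 100 were named, and Ifitm6 was added after its value was seen; 1 gene of that list is not reported here. Deviations from the group means of samples with the same number had correlations of -0.07, -0.08 and 0.01, so no pairing by number was seen across genes. Correlations over genes cannot show whether samples of the same number were handled together. Alternatives were RLE factors, total counts, no filter, at least 10 counts per sample, DESeq2 1.42.0, limma-trend (3.58.1) on log2(FPKM + 1) or log2(FPKM + 0.1) (FPKM of 1 or more in 3 or more libraries) and on log2(FPKM + 1) without that filter, a length correction with the length implied by count and FPKM, a replicate block, each replicate left out in turn, and, added after seeing the data, summing Ifitm2 with Gm45717.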

Additional observations from a re-analysis of the deposited data

How the results depend on the processing

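Between 15 and 23 of the 45 genes were called lower under every one of 18 alternatives, and 17 of the 20 called genes had the same direction and passed the test in all of them, the exceptions being Ifit3, Oas2 and Oasl2. The number called higher was 1 under both length corrections and 3 without Tespa1+/+ replicate 1 or with Ifitm2 and Gm45717 summed. The median log2 fold change, -0.49, was -0.59 for log2(FPKM + 0.1) and -0.59 for total counts, which moved the median of all genes to -0.10, and between -0.51 and -0.44 without 1 replicate. Of the other pathway genes, 3 were called higher under the length correction by exon length and 2 under each limma fit and total counts, against 5, and 15 and 17 were called lower by limma on log2(FPKM + 1) with and without the filter, against 27. The cause of these shifts was not tested.

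With the length correction by exon length or by implied length, Samhd1 turned to 0.12 or 0.012, Ifi35 to -0.13 or -0.032 and Isg15 to -0.41 or -0.39, and Bst2 turned to -0.051 by exon length. Isg15, at 0.00, was also on the negative side at -0.022 with at least 10 counts per sample, -0.10 in each of the 3 limma fits and for total counts, and without replicate 2 of either group, the values without 1 replicate running from -0.065 to 0.063.

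Taken across genes, samples of the same number did not deviate together, although Irf9 was high in the second library of both groups. With the replicate block 16 genes were called lower and 2 higher, Isg15 was at -5.89e-05, Ifit3 (adjusted p = 0.0729), Oas2 (0.0562), Parp9 (0.0503) and Irf8 (0.0809) did not pass, and Irf9 did (0.000724). Depth limited Ifit3 most, at a mean count of 38.7.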
